A study of Mus musculus with 8 samples.

Results

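Proteins larger than a small limit cross the nuclear pore with carriers of the karyopherin family, and the 30 genes described here encode those carriers and the regulators of Ran, the small GTPase that gives the transport its direction. The rule that lists them uses gene names and no measured value, although the list was drawn up with earlier results of these data known. It holds 6 importin alpha adaptors (Kpna genes), 11 import receptors (Kpnb1 and the Ipo and Tnpo genes), 7 export receptors (Xpo1, Xpo4, Xpo5, Xpo6, Xpo7, Xpot and Cse1l) and 6 genes of the Ran cycle (Ran, Rcc1, Rangap1, Ranbp1, Ranbp3 and Nutf2). All 30 were listed among the 47643 genes of the series. Quadriceps RNA of 8 mice was sequenced, 1 library per mouse, and the labels put 4 libraries in the Nup210+/+ group and 4 in the Nup210-/- group. Nup210 encodes a transmembrane protein of the nuclear pore, and the comparison asks whether the carriers that pass through the pore are expressed at other levels in muscle that lacks it. The Nup210-/- mice carry a constitutive deletion of exon 2, made by crossing a floxed allele with Hprt-Cre mice, so the deletion is not limited to muscle. The labels give the strain of both genotypes as C57BL/6 and the study's methods a backcross to C57BL/6J. The labels name no injury or treatment, and the age and sex of these mice are not given in the sources used here.

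An importin alpha adaptor recognises the classical nuclear localization signal of a cargo and binds importin beta, encoded by Kpnb1, which carries the complex through the pore, while other import receptors bind their cargo directly. In the nucleus Ran in its GTP form opens the import complex, and the same form is needed for an export receptor to hold its cargo. Rcc1 on chromatin loads Ran with GTP, Rangap1 and Ranbp1 bring about the hydrolysis of that GTP in the cytoplasm, and Nutf2 returns Ran to the nucleus. In skeletal muscle these carriers serve the many nuclei of each fiber and the nuclei of the cells between the fibers, which whole-muscle RNA does not separate.

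Levels are given as scaled TPM, that is, the TPM (transcript abundance relative to the library total, corrected for transcript length) as deposited, divided in each library by a factor between 0.936 and 1.12 that brings the typical gene to the same level in all libraries. The number of reads behind the values is unknown, so no counting error can be attached to one library and precision rests on the spread between mice. Nup210 itself was at 10.09, 10.94, 11.88 and 9.42 scaled TPM in the Nup210-/- libraries and at 5.56, 9.76, 8.18 and 7.03 in the Nup210+/+ libraries. Its summed transcript was therefore not lower under the knockout label (log2 fold change 0.44 ± 0.15 SE, adjusted p = 0.231, limma with Benjamini-Hochberg adjustment). A value per gene does not show whether exon 2 is present, and the directions below rest on the labels. For this mouse line the study reports a total loss of the protein, which it checked in muscle, quadriceps included, by immunoprecipitation and in sections by immunofluorescence. All 7 muscle fiber markers were found, and their sum was 79446 to 83885 scaled TPM in the Nup210-/- libraries and 63884 to 78839 in the Nup210+/+ libraries, without overlap. Of these markers only Acta1 was without overlap by itself. The sum of 8 leukocyte markers was 112.8 to 131.0 against 146.4 to 246.1, also without overlap, with Cd79a at 0 in some libraries. Most of that sum was Lyz2, with means of 99.5 and 156.4 scaled TPM. Lyz2, Ptprc, Cd52 and Laptm5 were each without overlap, while Coro1a, Cd68, Cd3e and Cd79a overlapped. Nup210+/+ replicate 2 stood apart from the other libraries: its 12 markers of dividing cells summed to 140.5 scaled TPM against 33.1 to 37.4 in the other 3 Nup210+/+ libraries and 31.3 to 36.2 in the Nup210-/- libraries, and its 6 markers of granulocyte precursors to 368.4 against at most 2.06 elsewhere. Results that rest on this library are given with and without it. In whole muscle, fewer cells of a type and less RNA per cell cannot be told apart.

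The muscle expressed 29 of the 30 genes, and Kpna7, an importin alpha best known from the oocyte and early embryo, was listed at 0 in all 8 libraries and was not tested. Mean levels over the 8 libraries, which are per transcript length and so can be set side by side, ran from 3.57 scaled TPM for Xpo4 to 106.5 for Ipo13. Among the importin alpha adaptors the order was Kpna3 at 103.3, Kpna1 at 91.9, Kpna4 at 72.3, Kpna6 at 30.8 and Kpna2 at 14.7 scaled TPM. Each adaptor was above the next in 8 of 8 libraries, with no overlap of neighbouring ranges. The import receptors were led by Ipo13, followed by Ipo5 at 69.0 and Ipo7 at 54.0 scaled TPM. Kpnb1, the partner of all importin alpha adaptors, was at 34.2 scaled TPM and could not be separated from Ipo4 at 34.4, which was the higher of the pair in 5 of 8 libraries. Tnpo3 followed at 25.0, and Tnpo1 at 14.2 was not separated from Ipo9 at 13.2, since it was higher in 6 of 8 libraries with overlapping ranges. Tnpo2, Ipo8 and Ipo11, at 10.5, 10.4 and 10.2 scaled TPM, overlapped one another.

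Among the export receptors, Cse1l, which returns importin alpha to the cytoplasm, had the highest mean level at 50.9 scaled TPM, above Xpo1, the receptor of leucine-rich export signals, at 23.0. Below them were Xpo6, an exporter of actin, at 15.2 and Xpot, the exporter of tRNA, at 9.46 scaled TPM. Xpo7 at 6.61 and Xpo5 at 6.49, the latter an exporter of microRNA precursors, were not separated, with Xpo7 higher in 4 of 8 libraries. In the Ran cycle, Ran was at 64.9 scaled TPM, far above Ranbp1 at 25.4, Ranbp3 at 19.7 and Nutf2 at 18.6, which overlapped in that order. Rangap1 was at 14.6 and Rcc1, the exchange factor, was the lowest at 5.78 scaled TPM. The level of Nutf2 is uncertain, because a near-identical copy, Nutf2-ps1, was listed at 61.3 scaled TPM and the estimate may have divided reads between them.

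Between genotypes, 0 of the 29 tested genes were called at an adjusted p of 0.05 by limma with Benjamini-Hochberg adjustment over the 14229 genes tested, of which 0.112% were called, and the lowest adjusted p among them was 0.118 (Ipo13). At an unadjusted p of 0.05, 5 of 29 (17.2%) passed, beside 14.2% of all genes. Of these, 4 were higher and 1 lower in Nup210-/- muscle, where 7.0% and 7.18% of all genes were higher and lower. Estimated log2 fold changes were above 0 for 16 genes and below 0 for 13. Their median was 0.02, beside -0.01 for all genes tested, and they ran from -0.51 (Ranbp1) to 0.39 (Ipo4). The 95% interval of the fold change lay inside 1.5-fold in both directions for 26 of 29 genes (89.7%), beside 73.1% of all genes. The exceptions were Ipo4, Ranbp1 and Rcc1. The share was 93.5% for the 31 other nuclear transport genes tested, which are described below. All genes reach down to a mean TPM of 0.5, while the lowest mean here was 3.57, so the shares are not matched for level.

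**Figure D1:**
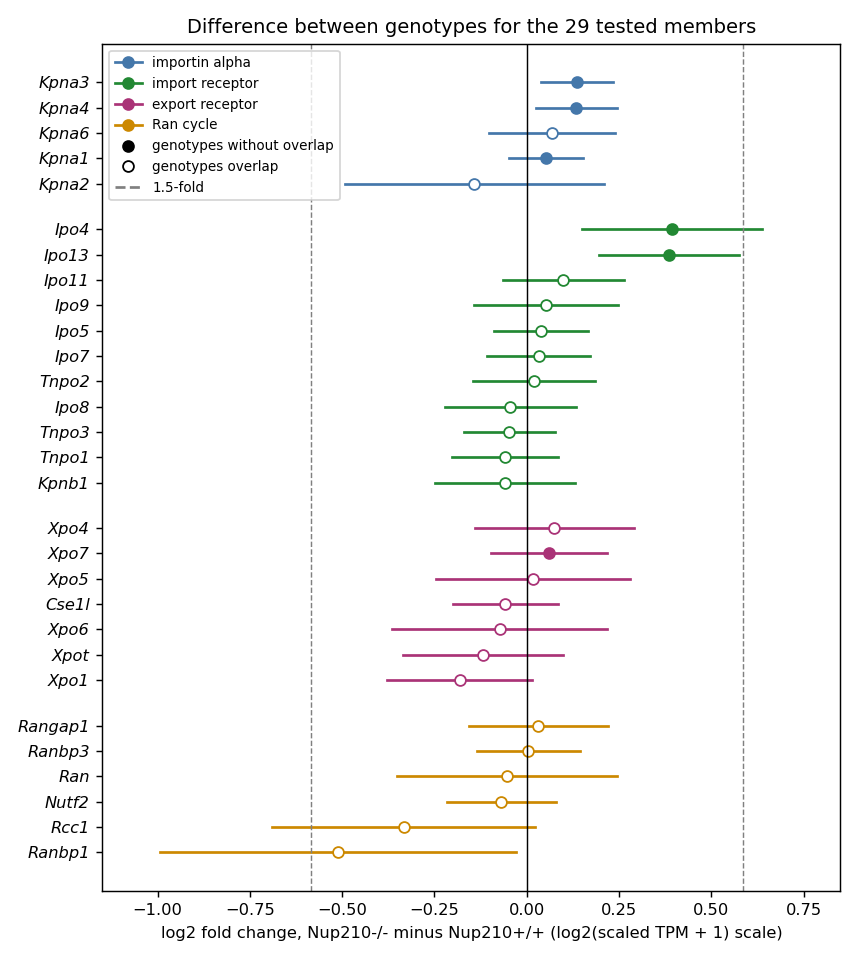
Log2 fold change (Nup210-/- minus Nup210+/+) of log2(scaled TPM + 1) for the 29 tested genes by role, with 95% limma intervals as bars, filled points for genes whose genotypes did not overlap and dashed lines at 1.5-fold. Most intervals lie within the dashed lines, and those of Ipo4, Ranbp1 and Rcc1 cross them.

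In 6 genes (20.7% of 29, beside 9.38% of all genes) the 4 libraries of one genotype were all above the 4 of the other. All 6 were higher in the Nup210-/- libraries and 0 were lower, beside 4.78% and 4.6% of all genes. They were Ipo13, Ipo4, Kpna3, Kpna4, Kpna1 and Xpo7. With the TPM as deposited, without scaling, the counts were 2 higher (Ipo13 and Ipo4) and 3 lower (Ipo7, Ranbp1 and Rcc1), so the direction of the count depends on the scaling. Only Ipo13 and Ipo4 were without overlap under the main settings and all 20 alternative settings. Pseudocounts, filters, variance models, library weights and the replicate block leave the order of libraries unchanged, so they could not alter this count. Changes of scaling could: 5 genes remained with upper-quartile scaling and 3 with rescaling without mitochondrial and top genes.

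**Figure D2:**
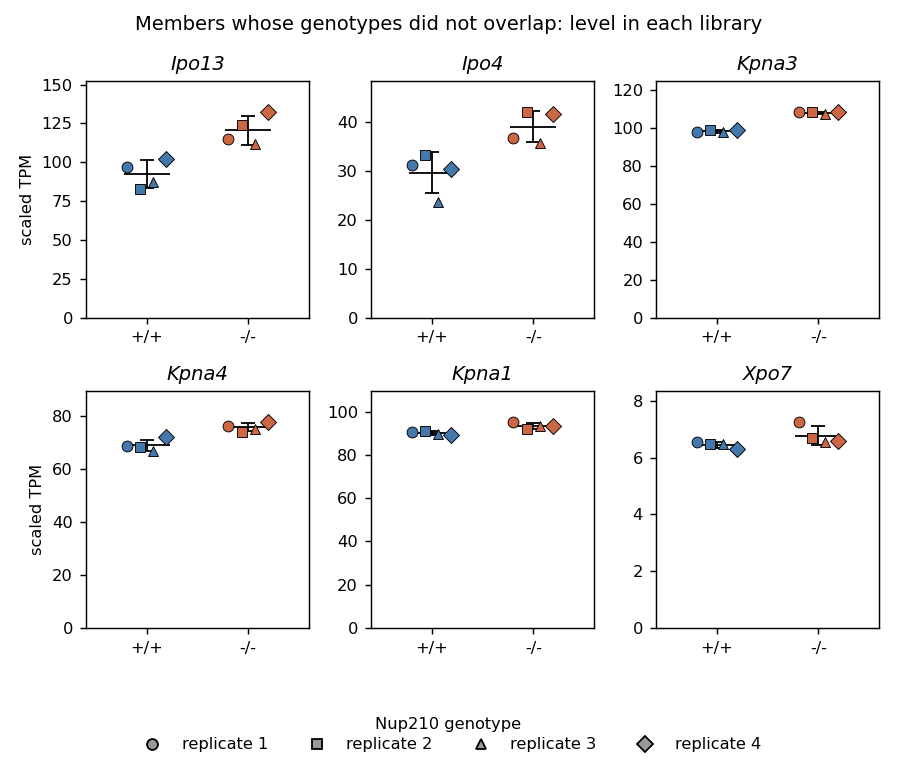
Scaled TPM (linear axis) in each library for the 6 genes without overlap of genotypes, with 4 Nup210-/- and 4 Nup210+/+ libraries per gene and the mean and SD of each group. Ipo13 means are 120.7 and 92.2 and Ipo4 means 39.1 and 29.7, while Kpna1 means are 93.5 and 90.2.

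Ipo13, a carrier that imports some cargoes and exports others, was at 114.9, 123.7, 111.7 and 132.4 scaled TPM in the Nup210-/- libraries and at 97.25, 82.58, 87.1 and 102.0 in the Nup210+/+ libraries. The lowest Nup210-/- library was above the highest Nup210+/+ library. Group means were 120.7 ± 9.36 and 92.2 ± 8.95 (SD, n = 4 each), a log2 fold change of 0.39 ± 0.08 SE with a 95% interval of 0.20 to 0.58. The difference did not pass the threshold over all genes (limma with Benjamini-Hochberg adjustment, adjusted p = 0.118), and the two-sided exact permutation test over 70 labelings of single libraries gave 0.0286, the smallest p it can give. Leaving out 1 library at a time gave 0.34 to 0.44, and TPM as deposited gave 0.29. The gene lies on chromosome 4 at 117894486 to 117914999, minus strand (GRCm38), with no other annotated gene sharing its exons. The 250 bases before its RefSeq start, on the minus strand of chr4:117915000-117915249 (GRCm38.p6), are shown because this is the gene with the lowest p, and capitals mark the letters of a GC box (GGGCGG, either strand).
Ipo13: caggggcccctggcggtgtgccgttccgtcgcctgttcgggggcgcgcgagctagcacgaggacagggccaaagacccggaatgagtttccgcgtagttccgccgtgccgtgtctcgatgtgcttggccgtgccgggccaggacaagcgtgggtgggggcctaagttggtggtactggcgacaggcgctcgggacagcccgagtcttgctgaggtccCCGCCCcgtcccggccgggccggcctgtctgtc

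Ipo4, an import receptor whose cargoes include ribosomal proteins and histones, had values of 36.87, 42.13, 35.83 and 41.64 scaled TPM in Nup210-/- muscle and 31.29, 33.33, 23.72 and 30.48 in Nup210+/+ muscle. Replicate 3 was the lowest library of each genotype, and the genotypes did not overlap. The means were 39.1 ± 3.23 and 29.7 ± 4.16 (SD, n = 4 each) and the log2 fold change was 0.39 ± 0.11 SE (limma with Benjamini-Hochberg adjustment, adjusted p = 0.179), which did not pass. With 1 library left out the estimate was between 0.29 and 0.45, and with TPM as deposited it was 0.30. Ipo4 lies on chromosome 14 at 55625400 to 55635957, minus strand, and shares exon sequence with the annotated gene Gm49378 on the same strand, so part of its value may belong to that gene.

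The other 9 import receptors had log2 fold changes between -0.06 and 0.10, with adjusted p-values of 0.558 or more (limma with Benjamini-Hochberg adjustment), and their genotypes overlapped. Kpnb1 was at 32.61, 38.24, 30.42 and 32.69 scaled TPM in the Nup210-/- libraries and at 38.7, 33.01, 34.46 and 33.38 in the Nup210+/+ libraries. Its highest values were in 1 library of each genotype, and the difference was -0.06 ± 0.08 SE with an interval of -0.25 to 0.13. The transportins, which carry cargo such as hnRNP and SR proteins, were as near to 0, with log2 fold changes of -0.06 (Tnpo1), 0.02 (Tnpo2) and -0.05 (Tnpo3). The summed level of the 11 import receptors was 401.0 ± 15.6 scaled TPM in Nup210-/- and 361.9 ± 14.1 in Nup210+/+ muscle (SD, n = 4 each), without overlap. With TPM as deposited the sums were 388.0 ± 14.7 and 373.9 ± 12.9 with overlap, so the gap fell from 39.1 to 14.1 TPM. Most of the gap on the scaled values is held by Ipo13 and Ipo4.

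Of the importin alpha adaptors, 3 of the 5 tested were without overlap on the scaled values, all higher in the Nup210-/- libraries (beside 4.78% of all genes), and 0 of these 3 were without overlap with TPM as deposited. Kpna3 was at 108.6, 108.4, 107.5 and 108.4 scaled TPM in the Nup210-/- libraries and at 97.88, 99.18, 97.76 and 99.03 in the Nup210+/+ libraries. All 4 Nup210-/- values were above all 4 Nup210+/+ values. The means were 108.2 ± 0.47 and 98.5 ± 0.75 (SD, n = 4 each), a log2 fold change of 0.14 ± 0.04 SE that did not pass (limma with Benjamini-Hochberg adjustment, adjusted p = 0.215). Kpna3 lies on chromosome 14 at 61365211 to 61439874, minus strand.

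Kpna4, the nearest relative of Kpna3, was at 76.24, 74.0, 74.91 and 77.62 scaled TPM in Nup210-/- muscle and at 68.48, 68.33, 66.82 and 71.89 in Nup210+/+ muscle. The gap between the lowest Nup210-/- and the highest Nup210+/+ library was narrow but there was no overlap. Group means were 75.7 ± 1.58 and 68.9 ± 2.14 (SD, n = 4 each), a log2 fold change of 0.13 ± 0.05 SE (limma with Benjamini-Hochberg adjustment, adjusted p = 0.268). With TPM as deposited the estimates of Kpna3 and Kpna4 were both 0.04. The promoter of Kpna4 is shown because it holds CCAAT letters on both strands, as 229 bases on the minus strand of chr3:69127114-69127342 (GRCm38.p6) that end 21 bases before its RefSeq start, with capitals for the letters of CCAAT and of a GC box.
Kpna4: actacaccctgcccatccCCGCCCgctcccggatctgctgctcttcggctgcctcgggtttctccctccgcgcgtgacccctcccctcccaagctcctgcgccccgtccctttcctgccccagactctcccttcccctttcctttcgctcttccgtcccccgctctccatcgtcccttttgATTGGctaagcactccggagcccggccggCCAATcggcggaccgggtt

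Kpna1 was at 95.23, 91.85, 93.46 and 93.56 scaled TPM in the Nup210-/- libraries and at 90.5, 91.27, 89.85 and 89.16 in the Nup210+/+ libraries. The genotypes did not overlap, but the lowest Nup210-/- and highest Nup210+/+ libraries were less than 1 scaled TPM apart. The log2 fold change was 0.05 ± 0.04 SE (limma with Benjamini-Hochberg adjustment, adjusted p = 0.620), and it was -0.04 with TPM as deposited. Kpna6 had a log2 fold change of 0.07 with overlap of genotypes. Kpna2, named here after its values were seen, was at 14.26, 14.41, 11.49 and 15.12 scaled TPM in Nup210-/- and at 15.08, 20.85, 14.65 and 11.78 in Nup210+/+ muscle. Only Nup210+/+ replicate 2 was above 15.12, and the log2 fold change of -0.14 was 0.00 without that library.

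Shares of the importin alpha pool, the summed TPM of the 5 expressed adaptors in a library, do not depend on the scaling between libraries. Kpna3 took 33.5 ± 0.36% of the pool in Nup210-/- and 32.5 ± 0.30% in Nup210+/+ muscle (SD, n = 4 each), without overlap. Kpna1 took 28.97 ± 0.17% and 29.8 ± 0.21%, also without overlap and in the other direction. Shares are parts of one whole and move together, so a lower share does not mean a lower level of Kpna1. Kpna4 was at 23.4 ± 0.44% and 22.7 ± 0.79%, and Kpna6 at 9.79 ± 0.87% and 9.90 ± 0.47%, with overlap. Kpna2 was at 4.28 ± 0.49% and 5.13 ± 1.18%, the latter with 6.75% in replicate 2. The pool itself does depend on it: it was 322.9 ± 3.97 scaled TPM in Nup210-/- and 303.1 ± 3.74 in Nup210+/+ muscle, without overlap. As deposited it was 312.5 ± 8.62 and 313.8 ± 20.9 TPM, with overlap and the Nup210+/+ mean the higher.

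**Figure D3:**
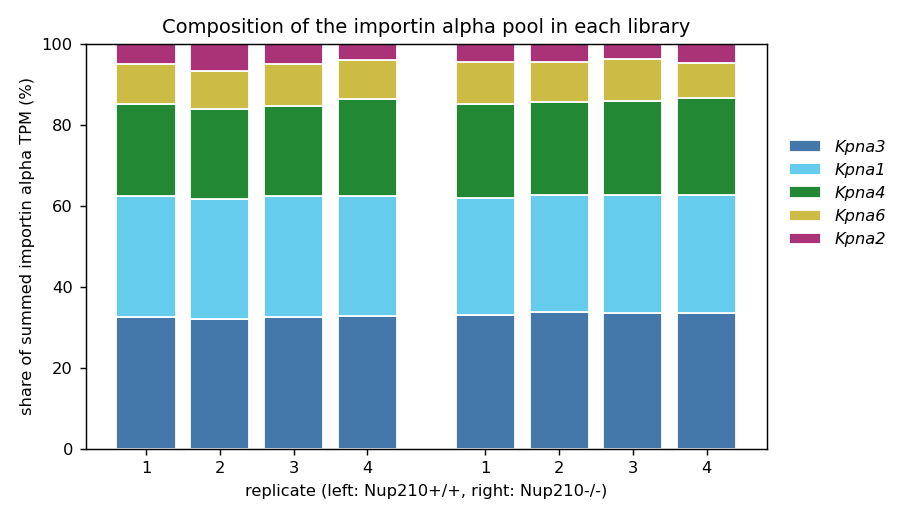
Share of the summed importin alpha TPM (percent, stacked bars from 0) taken by each of the 5 expressed adaptors in each of the 8 libraries. Kpna3 and Kpna1 hold the 2 largest shares in every library, and the Kpna2 share is largest in Nup210+/+ replicate 2, at 6.75%.

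Among the 7 export receptors, log2 fold changes ran from -0.18 (Xpo1) to 0.07 (Xpo4), and none passed at an unadjusted p of 0.05. Cse1l was at 53.45, 47.46, 47.13 and 51.48 scaled TPM in Nup210-/- muscle and at 49.19, 53.92, 50.89 and 53.8 in Nup210+/+ muscle, with wide overlap and a log2 fold change of -0.06 ± 0.06 SE. Xpo1 was at 21.77, 21.86, 20.24 and 21.73 scaled TPM in the Nup210-/- libraries and at 20.81, 27.96, 24.62 and 24.7 in the Nup210+/+ libraries. One Nup210+/+ library, replicate 1, lay within the Nup210-/- range and the other 3 lay above it. The difference was -0.18 ± 0.09 SE (limma with Benjamini-Hochberg adjustment, adjusted p = 0.382), the exact permutation p was 0.114, and the estimate was -0.12 without Nup210+/+ replicate 2. Xpo1 lies on chromosome 11 at 23256041 to 23298249, plus strand.

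Xpo7 was at 7.25, 6.7, 6.56 and 6.57 scaled TPM in the Nup210-/- libraries and at 6.55, 6.48, 6.47 and 6.3 in the Nup210+/+ libraries. The groups did not overlap, by 0.01 scaled TPM at the nearest pair of libraries as rounded here. The log2 fold change was 0.06 ± 0.07 SE (limma with Benjamini-Hochberg adjustment, adjusted p = 0.719) and -0.02 with TPM as deposited. Xpo7 shares exon sequence with Npm2 on the same strand. The summed level of the export receptors was 112.1 ± 5.71 scaled TPM in Nup210-/- and 118.3 ± 7.31 in Nup210+/+ muscle (SD, n = 4 each), with overlap, and the Nup210+/+ mean was 115.0 without replicate 2.

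In the Ran cycle, Ranbp1, a cofactor of Ran GTP hydrolysis, had the largest negative estimate of the 29 genes. It was at 18.13, 22.0, 20.9 and 19.68 scaled TPM in Nup210-/- muscle and at 21.21, 48.43, 26.44 and 26.23 in Nup210+/+ muscle. Replicate 2 was far above the rest, replicate 1 lay within the Nup210-/- range and the other 2 Nup210+/+ libraries lay above it. The log2 fold change was -0.51 ± 0.21 SE with an interval of -0.99 to -0.03 (limma with Benjamini-Hochberg adjustment, adjusted p = 0.324), and the exact permutation p was 0.0571. Without Nup210+/+ replicate 2 it was -0.27 (limma with Benjamini-Hochberg adjustment, adjusted p = 0.310). The gene lies on chromosome 16 at 18239784 to 18248732, minus strand, and shares exon sequence with Gm49776 on the same strand and Trmt2a on the other. Among the 23 genes with a promoter window, its promoter is one of 2 that hold the letters of an E2F site. For that reason 30 bases are shown, on the minus strand of chr16:18248724-18248753 (GRCm38.p6). The E2F letters lie before the RefSeq start but inside the annotated gene interval given above. Capitals mark the letters TTTGAA (CHR, an element of cell cycle promoters) and TTTCCCGC (E2F).
Ranbp1: actggtTTTGAAtcactgcgcgTTTCCCGC

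Rcc1 was at 5.8, 4.78, 4.25 and 4.96 scaled TPM in the Nup210-/- libraries and at 5.52, 9.27, 5.41 and 6.23 in the Nup210+/+ libraries, and its groups overlapped through Nup210-/- replicate 1. The log2 fold change was -0.33 ± 0.16 SE (limma with Benjamini-Hochberg adjustment, adjusted p = 0.379) and -0.18 without Nup210+/+ replicate 2. Rcc1 shares exon sequence with Snhg3, a host gene of small nucleolar RNAs, on the same strand, which was itself at 6.22 to 13.1 and 7.94 to 14.6 scaled TPM in the Nup210-/- and Nup210+/+ libraries. Ran was at 62.44, 59.92, 65.35 and 65.04 scaled TPM in Nup210-/- muscle and at 60.63, 88.44, 54.06 and 63.61 in Nup210+/+ muscle. Outside replicate 2 the genotypes overlapped, with Nup210+/+ replicate 3 the lowest of all libraries. The log2 fold change of Ran was -0.05 ± 0.13 SE (limma with Benjamini-Hochberg adjustment, adjusted p = 0.885), and 0.09 without replicate 2. The remaining genes, Rangap1, Ranbp3 and Nutf2, had log2 fold changes of 0.03, 0.00 and -0.07 with overlap of genotypes. The summed level of the Ran cycle genes was 141.0 ± 3.84 scaled TPM in Nup210-/- and 157.1 ± 29.7 in Nup210+/+ muscle (SD, n = 4 each), with 201.1 in Nup210+/+ replicate 2. Without that library the Nup210+/+ sum was 142.4 ± 5.92 (SD, n = 3).

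The library of Nup210+/+ replicate 2 had the highest value of all 8 for 11 of the 29 genes (37.9%), beside 19.1% of all genes tested. Ranbp1 was there 1.97 times the mean of the other 3 Nup210+/+ libraries, Rcc1 1.62 times, Kpna2 1.51 times and Ran 1.49 times. These 4 genes were followed by Xpot at 1.27 times and Xpo1 at 1.20 times. By role the library was the highest for 5 of 7 export receptors and 4 of 6 Ran cycle genes. Some of these margins were small. Its value was 1.002 times the next highest library for Cse1l, 1.014 for Xpo6, 1.022 for Tnpo1, 1.029 for Rangap1 and 1.036 for Xpo5. For Ranbp1 it was 1.832 times. The dividing-cell and granulocyte precursor markers stood apart in the same single library, and their part in the levels was not tested. The expressed genes with their lowest value of all libraries there were Xpo4 at 2.97 scaled TPM, 0.821 times the mean of the other 3 Nup210+/+ libraries, and Ipo13 at 82.58, 0.865 times that mean.

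**Figure D4:**
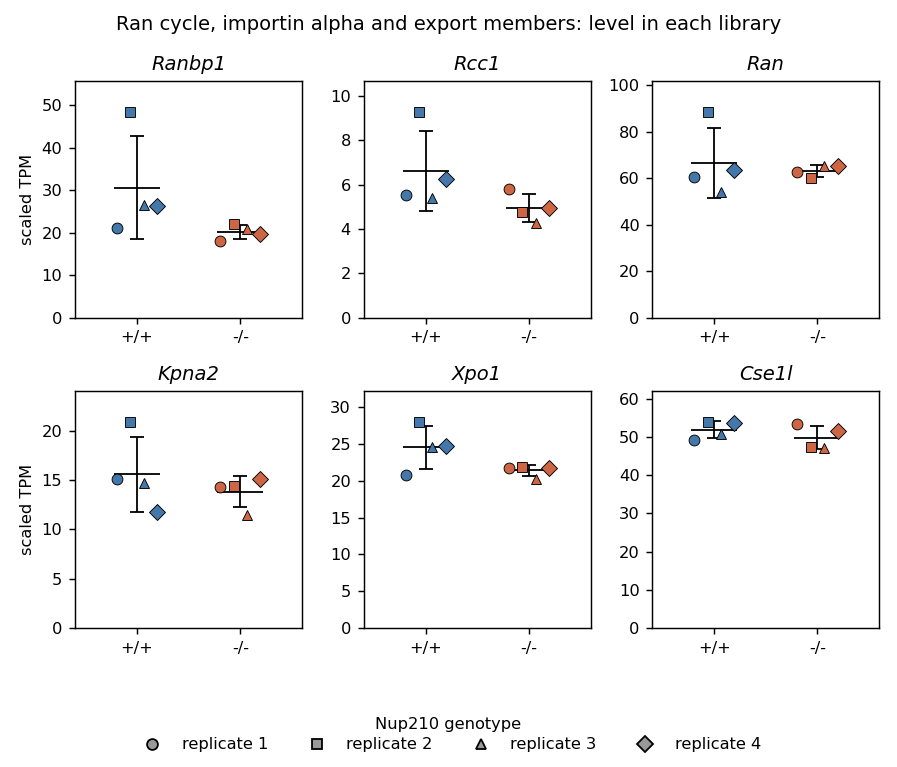
Scaled TPM (linear axis) in each library for Ranbp1, Rcc1, Ran, Kpna2, Xpo1 and Cse1l, with the mean and SD of each genotype and 4 libraries per group. Nup210+/+ replicate 2 is the highest point in each panel, at 48.43 for Ranbp1 and 88.44 for Ran.

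**Figure D5:**
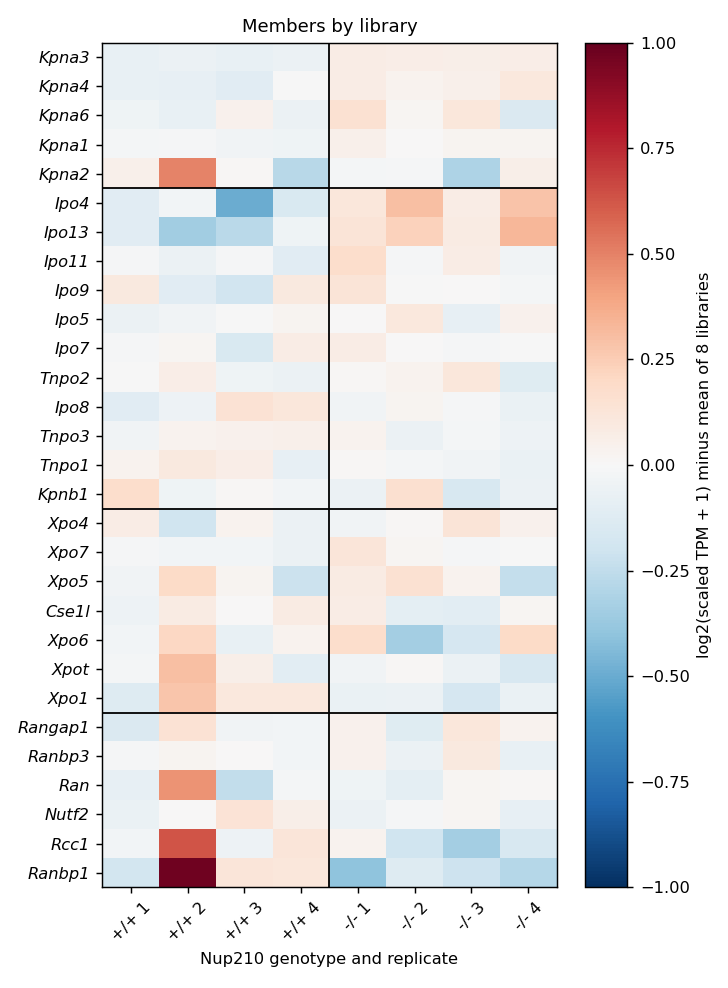
Log2 deviation of each of the 29 expressed genes from its own mean over 8 libraries, by role (rows) and library (columns), with higher values in one colour and lower values in the other. The column of Nup210+/+ replicate 2 holds the strongest positive deviations, at Ranbp1 and Rcc1.

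Other genes of nuclear transport, 33 of a list of 34 found by name (cofactors of Ran, pore proteins with docking roles, mRNA and snRNA export factors and SUMO enzymes among them), were tested in the same fit. Of 31 tested, 0 passed the adjusted threshold. At an unadjusted p of 0.05, 1 estimate was higher and 3 were lower (12.9%, beside 14.2% of all genes, 7.0% higher and 7.18% lower). These were Akirin2, an import factor of the proteasome, at a log2 fold change of 0.21, and Nxt2, Rcc2 and Ncbp1 at -0.22, -0.52 and -0.24 (limma with Benjamini-Hochberg adjustment, adjusted p from 0.229 to 0.343). Nxt2, a cofactor of mRNA export, and Rcc2, a relative of Rcc1 with roles in mitosis, were without overlap, both lower in Nup210-/- muscle. They were 6.45% of 31, beside 9.38% of all genes in both directions and 4.6% of all genes lower. With both directions pooled, neither share of the list was above that of all genes, while the share without overlap and lower was above it. The estimate of Akirin2 was 0.12 with TPM as deposited. Rcc2 was at 4.22, 5.06, 4.83 and 4.14 scaled TPM in the Nup210-/- and at 5.45, 12.0, 6.7 and 5.15 in the Nup210+/+ libraries, again with replicate 2 highest, and its log2 fold change was -0.28 without that library. The median of the list was 0.01.

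Promoter windows from 250 bases before to 50 after the start were matched in RefSeq (GRCm38.p6) for 23 of the 30 genes, as 28 windows of 300 bases. The GC box, GGGCGG on either strand, was in 18 windows (64.3%), beside 35.7% of all 32851 promoter windows of that length. The CCAAT box, CCAAT on either strand, was in 13 (46.4%, beside 37.4%), and the palindromic E-box CACGTG in 5 (17.9%, beside 7.15%). The CHR letters TTTGAA were in 8 windows (28.6%, beside 17.9%), of Ipo4, Ipo7, Kpna2, Kpna7, Ranbp1, Rangap1, Rcc1 and Tnpo2. The E2F letters searched, TTTCCCGC, TTTGGCGC, TTTCGCGC and TTTGCCGC on either strand, were in 2 (7.14%, beside 2.26%), of Ranbp1 and Ipo7. The MEF2 site, bound by a family of muscle transcription factors and searched here by its core letters on either strand, was in 1 (3.57%, beside 3.69%), of Kpna2. A GC box on the reverse strand can share bases with E2F letters that end in CCGC, and windows of one gene with several starts may share bases. The matches are letters in a window and do not show binding.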

How the data were processed

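RNA was measured in quadriceps of 8 mice, with groups and replicate numbers taken from the sample labels. The authors selected polyadenylated RNA, made directional single-end libraries, trimmed reads with cutadapt 2.3, aligned them to mm10 with STAR 2.7.0d and estimated expression with RSEM 1.3.1 using Ensembl annotations. The values the authors deposited are TPM per gene and library. Whether the estimate used strand is not stated in the sources used here, and depth is unknown.

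TPM were scaled by the median of ratios over 15225 genes above 0 in all libraries. The test used limma 3.58.1 (lmFit, eBayes with an intensity trend, R 4.3.3) on log2(scaled TPM + 1), with genotype the only term and genes under a mean TPM of 0.5 left out, with Benjamini-Hochberg adjustment over 14229 genes at 0.05. Fold changes are on this scale, which understates changes of low genes. Limma p-values and SE rest on the spread between these mice, with each gene's variance drawn toward that of genes at a similar level. They can therefore differ from what the SD of a gene would give. For Kpna3, whose SDs are small, the SE is larger than its own spread implies. Single genes were also tested by exact permutation over 70 labelings. The procedure was tested on simulated data.

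The members, lists and rule for naming genes were chosen with earlier results of these data known. Given with values in every library were genes at an unadjusted p of 0.05 or without overlap, the 3 largest positive and negative estimates, and the most abundant gene of each role. Alternatives were pseudocounts of 0.1 and 0.5, other filters, TPM as deposited, upper-quartile scaling, rescaling without mitochondrial and the 20 most abundant genes, other variance models, library weights, the replicate number as a block and each library left out. Sums of levels and other transport genes as deposited or without Nup210+/+ replicate 2 were added after the data were seen. Coordinates are from GENCODE on GRCm38. Exons of 12 of the 30 genes overlap another gene, 6 on the same strand and 9 on the opposite one.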

Additional observations from a re-analysis of the deposited data

Results flagged for a closer look

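In 76 groups of 4 libraries (each of the 29 genes, Nup210 and the 8 marker sums, in each genotype), 7 held 1 library whose gap to the nearest other library took up an unusual part of the group's range, where chance gives about 1 in 20, or 3.8. Of these, 4 were transport genes, all with small gaps in absolute terms. Nup210-/- replicate 1 had 56.82 scaled TPM of Ipo7, where the group's remaining libraries had 53.58 to 54.12 (gap over range 0.832). Ipo9 in the same library was at 14.42 against 12.92 to 13.16 (0.842). Tnpo3 was at 24.37 in Nup210+/+ replicate 1 against 25.65 to 25.81 (0.894), and Xpo1 at 20.24 in Nup210-/- replicate 3 against 21.73 to 21.86 (0.917). The other 3 were marker sums. In Nup210+/+ replicate 2 the dividing-cell markers summed to 140.5 scaled TPM against 33.1 to 37.4 (0.96), and the granulocyte precursor markers to 368.4 against 0.325 to 2.06 (0.995). The fibroblast and tendon markers summed to 50.5 in Nup210-/- replicate 2 against 41.6 to 41.7 (0.982). Their part in the levels of the transport genes was not tested.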

How the results depend on the processing

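No member passed an adjusted p of 0.05 in limma under any of 20 alternatives, where the lowest adjusted p of a member was 0.0715, for Ipo13 without Nup210+/+ replicate 4. With TPM as deposited the median log2 fold change of the members was -0.0669 and that of all genes -0.08, 24 of 29 estimates were below 0, and 11 changed sign, among them Kpna1 (-0.0422) and Xpo7 (-0.0225). Rescaling without mitochondrial and top genes left 3 members without overlap and a median of -0.0158, and 5 estimates changed sign. Without the variance trend, a count added after the data were seen, 3 members reached an unadjusted p of 0.05. With 1 library left out, which makes overlap less likely, members without overlap numbered 6 to 8. The median was then -0.0136 to 0.0297, and 3 to 6 members reached an unadjusted p of 0.05. Without Nup210+/+ replicate 2 the estimates of Ran (0.0909, the highest of a range from -0.1425) and Kpna2 (0.0008, the highest of a range from -0.259) changed sign, and that of Ranbp1 moved from -0.51 to -0.27. Same-numbered mice of the 2 genotypes did not deviate together (r from -0.03 to 0.09 across 14229 genes). No pairing by number was seen, but such correlations cannot exclude one, and the labels do not state it. The replicate block left 0 members past the threshold, with a limma adjusted p of 0.234 for Ipo13. The block cannot change the 6 members without overlap. Depth is unknown, so differences of low genes such as Xpo4 cannot be set against counting error.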
